A study of Arabidopsis thaliana with 27 samples.

Results

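The plasma membrane intrinsic proteins (PIPs) are the aquaporins of the plant cell surface. Of the 33557 genes measured, 10 are described here, listed by gene identifier with earlier results of these data known. They are PIP1-1 to PIP1-5, PIP2-1 to PIP2-4 and PIP2-7, names often written with a semicolon in place of the hyphen. The other 3 of the 13 PIP genes (PIP2-5, PIP2-6 and PIP2-8) are given beside them. RNA was sequenced from whole wild-type Arabidopsis thaliana seedlings (Col-0) that had been moved suddenly to a warmer temperature, in 27 libraries. The labels describe 10 days of growth at 17 °C under long days, with the moves made 1 h after dawn.

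In the 17-to-27 experiment 2 libraries moved to 27 °C and 2 kept at 17 °C were taken after 15 min, after 1 h and after 4 h, beside 1 library at 0 min. The 17-to-37 experiment had 1 library moved to 37 °C and 1 kept at 17 °C per time, and 1 more at 0 min. The 22-to-27 experiment had 1 library moved to 27 °C and 1 kept at 22 °C per time, and 1 more at 0 min; the labels do not describe how its seedlings were grown. All groups share 1 genotype and carry no transgene or chemical treatment in the labels. Nothing in the labels ties duplicate libraries to separate cultures, so p-values may measure technical spread only.

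PIPs form tetramers that let water cross the plasma membrane, and some also pass hydrogen peroxide or carbon dioxide. They fall into the PIP1 and PIP2 subgroups. PIP2 proteins reach the membrane and conduct water by themselves, while PIP1 proteins often depend on a PIP2 partner in the same tetramer. In roots and leaves they set how readily water moves from cell to cell, and phosphorylation, pH and calcium open or close them within minutes.

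PIP2-3 and its neighbour PIP2-2 carry most of what follows. PIP2-3 (AT2G37180, also RD28, first described as a desiccation-responsive gene) lies on chromosome 2 from 15617708 to 15619155, and PIP2-2 (AT2G37170), which contributes to water uptake by root cells, from 15613402 to 15614857 (TAIR10, from the deposited files). In the RefSeq annotation of TAIR10.1 they point away from each other, with 2612 bases and 0 genes between them, and no PIP gene overlaps another gene. Their coding sequences are identical at 813 of 858 bases (94.8%), the closest of all PIP pairs. Pairs within PIP1 ranged from 79.8 to 87.6%, and pairs of a PIP1 with a PIP2 gene from 71.0 to 76.3%. The first 120 coding bases, shown because reads are told apart only by such differences, differ at 12 positions, in capitals.
PIP2-3: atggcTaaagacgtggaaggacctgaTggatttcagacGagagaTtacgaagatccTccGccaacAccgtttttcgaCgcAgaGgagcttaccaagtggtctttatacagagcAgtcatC
PIP2-2: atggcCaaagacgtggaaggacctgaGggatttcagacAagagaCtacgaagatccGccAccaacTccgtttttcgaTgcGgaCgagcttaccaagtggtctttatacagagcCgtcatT
Of all 100-base windows of the transcripts, 143 occur without a mismatch in both genes (12.8% of PIP2-3 and 11.48% of PIP2-2). With up to 2 mismatches the shares are 24.9% and 22.4%, and no other PIP pair shares a window at either setting. How the authors' counting placed such reads is not given in the sources used here, so the split between these genes is uncertain.

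The 250 bases before the RefSeq start of each gene are shown for the same pair, since PIP2-3 had larger fold changes than PIP2-2 in all 3 experiments, a difference between genes that was not tested. Capitals mark a pair of heat shock units (TTCNNGAA), the piece from which the binding site of heat shock factors is built.
PIP2-3 (chr2:15617385-15617634, plus strand, TAIR10.1): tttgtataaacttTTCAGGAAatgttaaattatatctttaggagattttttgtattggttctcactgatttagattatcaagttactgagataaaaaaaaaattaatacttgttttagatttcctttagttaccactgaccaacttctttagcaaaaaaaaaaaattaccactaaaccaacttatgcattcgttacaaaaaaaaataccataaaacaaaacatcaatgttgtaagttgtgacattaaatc
PIP2-2 (chr2:15615023-15615272, minus strand, TAIR10.1): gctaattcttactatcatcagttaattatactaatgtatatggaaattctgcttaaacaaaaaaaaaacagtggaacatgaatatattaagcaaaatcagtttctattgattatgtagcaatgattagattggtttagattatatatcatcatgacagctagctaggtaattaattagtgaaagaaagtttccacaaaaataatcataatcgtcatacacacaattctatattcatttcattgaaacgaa
Both strands were searched. TTCNNGAA stood in 1 of 10 members (PIP2-3, from 237 to 230 bases before the start), against 7.68% of the windows of 27437 coding genes. The opposite pair, GAANNTTC, stood in 1 member (PIP2-7), against 9.55% of windows. A row of 3 units (GAANNTTCNNGAA, or the form that starts with TTC), which overlap both pairs, stood in 0 of 10 members, against 0.39% of windows. The G-box CACGTG, bound by PIF factors, stood in 0 of 10 members (6.49% of windows), and so did the evening element AAAATATCT of the clock (2.36%). In 1000 bases the G-box stood in 2 members (PIP1-2 and PIP1-3), against 14.8% of windows, and GAANNTTC in 1 (PIP2-7), against 33.2%. TTCNNGAA stood in 5 members (PIP1-1, PIP1-4, PIP2-1, PIP2-2 and PIP2-3), against 30.3% of windows. At that length it does not set PIP2-3 apart from PIP2-2.

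Total counts per library ran from 5790129 to 30741125 over the experiments. HSP70-4 (AT3G12580), a heat-induced chaperone used to check the temperature labels, stood at 65.5 to 923 TPM in the libraries at 27 °C against 6.60 to 36.0 TPM in those at 17 °C of the 17-to-27 experiment. It stood at 1628 to 3150 TPM at 37 °C against 13.97 to 33.1 TPM at 17 °C, and at 232 to 1774 TPM at 27 °C against 88.5 to 284 TPM at 22 °C. Both 1 h libraries numbered 1 stood apart, with 6.45% (27 °C) and 5.43% (17 °C) of counts on chloroplast genes, against 0.20 to 1.54% in the others. A fit without just these 2 was run only for 27 against 17 °C over the 3 times. There the median log2 fold change of the 10 members was 0.38 without them and 0.46 with them. At 1 h only 1 library at a time was left out. All 12 root and all 9 shoot markers were above 0 in every library. The root markers summed to 722 to 1458 TPM at 27 °C against 854 to 1737 TPM at 17 °C, and to 1596 to 2553 TPM at 27 °C against 2117 to 2514 TPM at 22 °C. At 37 °C they summed to 835, 535 and 340 TPM at 15 min, 1 h and 4 h, against 2004, 1800 and 1890 TPM at 17 °C. The shoot markers summed to 21090 to 23152 TPM at 37 °C against 20739 to 26054 TPM at 17 °C. In the 17-to-27 experiment they summed to 18114 to 40673 TPM at 27 °C against 18177 to 35115 TPM at 17 °C. Both ends at 27 °C were libraries taken after 4 h, number 1 at 18114 TPM (30741125 counts) and number 2 at 40673 TPM (6404149 counts). In the 22-to-27 experiment they summed to 32031 to 36027 TPM at 27 °C against 31311 to 40570 TPM at 22 °C.

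In unmoved seedlings the 10 PIPs made up 0.401 to 0.575% of all TPM in the 11 libraries kept at 17 °C. TPM, which corrects for gene length, was highest for PIP1-2 (AT2G45960, median 1080, range 866 to 1290), which serves water transport and has been linked to carbon dioxide passage in leaves. PIP2-1 (AT3G53420), a major water channel also studied in guard cells, followed with a median of 1029 TPM (880 to 1315). PIP2-7 (AT4G35100) stood at a median of 782 TPM (589 to 1009), PIP1-1 (AT3G61430) at 559 TPM (356 to 641) and PIP1-3 (AT1G01620) at 457 TPM (317 to 605). PIP2-2 stood at 328 TPM (268 to 411), PIP1-4 (AT4G00430) at 288 TPM (163 to 328), PIP1-5 (AT4G23400) at 214 TPM (134 to 241) and PIP2-3 at 153 TPM (75.2 to 199.6). PIP2-4 (AT5G60660), known from roots, came last at 29.2 TPM (9.05 to 48.0). Neighbours in this order overlapped in range, except for PIP2-4, all of whose values lay below those of PIP2-3. PIP1 genes made up 48.3 to 54.1% of the summed level in these libraries. Over all 27 libraries PIP2-3 varied most (coefficient of variation 55.8%), then PIP1-5 (43.7%) and PIP2-4 (38.2%), while the other members were between 19.3 and 29.0%. In the 4 libraries kept at 22 °C the order was the same apart from a swap of PIP2-1 with PIP1-2 at the top and of PIP2-3 with PIP1-5.

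The move from 17 to 27 °C raised PIP2-3 over the 3 times, and 9 of 10 members had a positive log2 fold change. PIP2-3 was the single member past the test (1 of 10, against 1.5% of 21119 genes). The median log2 fold change of the 10 was 0.46, against -0.01 over all genes tested. Shoot markers were also mostly positive, 8 of 9 over the times (median 0.19), 9 of 9 at 15 min (0.52), 8 of 9 at 1 h (0.33) and 3 of 9 at 4 h (-0.19). Root markers were positive in 7 of 11 cases over the times (median 0.06), in 10 at 15 min (0.24), 8 at 1 h (0.25) and 1 at 4 h (-0.42). No marker was called at 27 °C in these fits, and their part in the PIP values was not tested. In bulk RNA of this kind, more cells that express a gene and more RNA per cell cannot be told apart. Values per library are given as CPM, counts divided by the TMM-scaled library size. The scaling of these values was computed over all 27 libraries, while each test scaled only the libraries that entered it.

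PIP2-3 had 215 and 235 CPM at 27 °C against 127 and 93.6 CPM at 17 °C after 15 min. After 1 h it had 632 and 325 CPM at 27 °C against 157 and 150 CPM at 17 °C. After 4 h it had 118 and 85.2 CPM at 27 °C against 90.9 and 55.6 CPM at 17 °C. The temperatures did not overlap at 15 min and 1 h, and overlapped at 4 h. The log2 fold change over the 3 times was 1.05 ± 0.23 (SE; 6 libraries at each temperature; edgeR adjusted p = 0.0491). That call sits at the threshold: leaving out either replicate number, any 1 time or both 1 h libraries numbered 1 gave adjusted p from 0.0652 to 0.558, with log2 fold changes from 0.75 to 1.32. With the replicate number as a block it was 0.0231 (2.27% of genes called), and with a block within each time 0.0328 (2.61%).

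The other PIP2 members missed the test. PIP2-1 had a log2 fold change of 0.57 ± 0.16 (SE, edgeR adjusted p = 0.0994). It had 2209 and 1422 CPM at 27 °C against 1070 and 1083 CPM at 17 °C after 1 h, its widest gap. PIP2-7, first described as a salt stress-inducible channel, had 0.52 ± 0.15 (adjusted p = 0.0991) and PIP2-2 had 0.50 ± 0.17 (0.15). PIP2-2 stood at 611 and 364 CPM at 27 °C against 263 and 264 CPM at 17 °C after 1 h. PIP2-7 stood at 883 and 930 CPM at 27 °C against 535 and 645 CPM at 17 °C after 1 h, without overlap. PIP2-4 was the exception in sign. It stood at 14.1 and 13.7 CPM at 27 °C against 21.3 and 16.4 CPM at 17 °C after 4 h and overlapped at the earlier times, with a log2 fold change of -0.20 ± 0.25 (adjusted p = 0.725).

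The PIP1 members also stayed short of the threshold. PIP1-3 came closest, at 0.48 ± 0.13 (SE, edgeR adjusted p = 0.0842), with 601 and 505 CPM at 27 °C against 323 and 371 CPM at 17 °C after 1 h. PIP1-2 had a log2 fold change of 0.45 ± 0.15, PIP1-5 of 0.44 ± 0.20, PIP1-1 of 0.34 ± 0.14 and PIP1-4 of 0.25 ± 0.13, with adjusted p from 0.148 to 0.337. PIP1-2 stood at 1671 and 1328 CPM at 27 °C against 884 and 1085 CPM at 17 °C after 1 h. PIP1-1 stood at 621 and 489 CPM at 27 °C against 345 and 482 CPM at 17 °C, and PIP1-4 at 470 and 343 CPM at 27 °C against 306 and 324 CPM at 17 °C, at the same time. In these 3 genes both libraries at 27 °C lay above both at 17 °C after 1 h, while after 4 h the temperatures overlapped. The libraries at 27 °C after 4 h lay far apart in PIP1-2 (852 and 1332 CPM), PIP2-1 (822 and 1336 CPM) and PIP2-7 (575 and 953 CPM). They lay closer in PIP1-1 (519 and 562 CPM). Their shoot marker sums also lay far apart, and a link was not tested. DESeq2 called 5 members higher (PIP1-2, PIP1-3, PIP2-1, PIP2-3 and PIP2-7), against 5.57% of all genes by that tool.

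At single times edgeR called 0 members: at 15 min against 0.218% of 21608 genes, at 1 h against 0.842% and at 4 h against 0.0324%. Unadjusted p was under 0.05 for 1, 6 and 2 members at these times. The share of all genes under that cut is not given, here or in the later comparisons. Over the 3 times the count was 8 members for 27 against 17 °C and 4 for 37 against 17 °C. Without that share, neither an excess nor a lack of one can be read from such counts. DESeq2 called 2 members at 1 h (PIP2-2 and PIP2-3), against 3.85% of genes. PIP2-3 came closest at 1 h, at 1.64 ± 0.35 (SE, 2 libraries each, edgeR adjusted p = 0.063), or 0.0244 with the replicate number as a block, which moved the count to 1, against 2.08% of genes with that block. Without the 27 °C library numbered 2, edgeR called PIP2-3 and PIP2-2 (6.08% of genes called), and without the one numbered 1 it called 0, with PIP2-3 at 1.08 ± 0.31 (adjusted p = 0.252). The members without overlap were 8 higher at 15 min, 9 higher at 1 h, and 3 higher with 1 lower at 4 h. Over all genes, 20.5%, 19.7% and 20.8% were higher in both libraries at these times, and 21.7% were lower at 4 h.

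PIP1-5 had another time course. It had 86.3 and 148 CPM at 27 °C against 94.6 and 156 CPM at 17 °C after 15 min. After 1 h it had 169 and 193 CPM at 27 °C against 119 and 135 CPM at 17 °C. After 4 h it had 341 and 335 CPM at 27 °C against 202 and 160 CPM at 17 °C, its widest gap (0.91 ± 0.29, SE, 2 libraries each, edgeR adjusted p = 0.262). The change of the 27 °C effect between 15 min and 4 h was 1.02 ± 0.40 for PIP1-5 (adjusted p = 0.635) and -0.53 ± 0.48 for PIP2-3 (adjusted p = 0.838). No member and 0 of 21608 genes passed that test, so the contrast between the courses is not shown to exceed the spread.

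**Figure D1:**
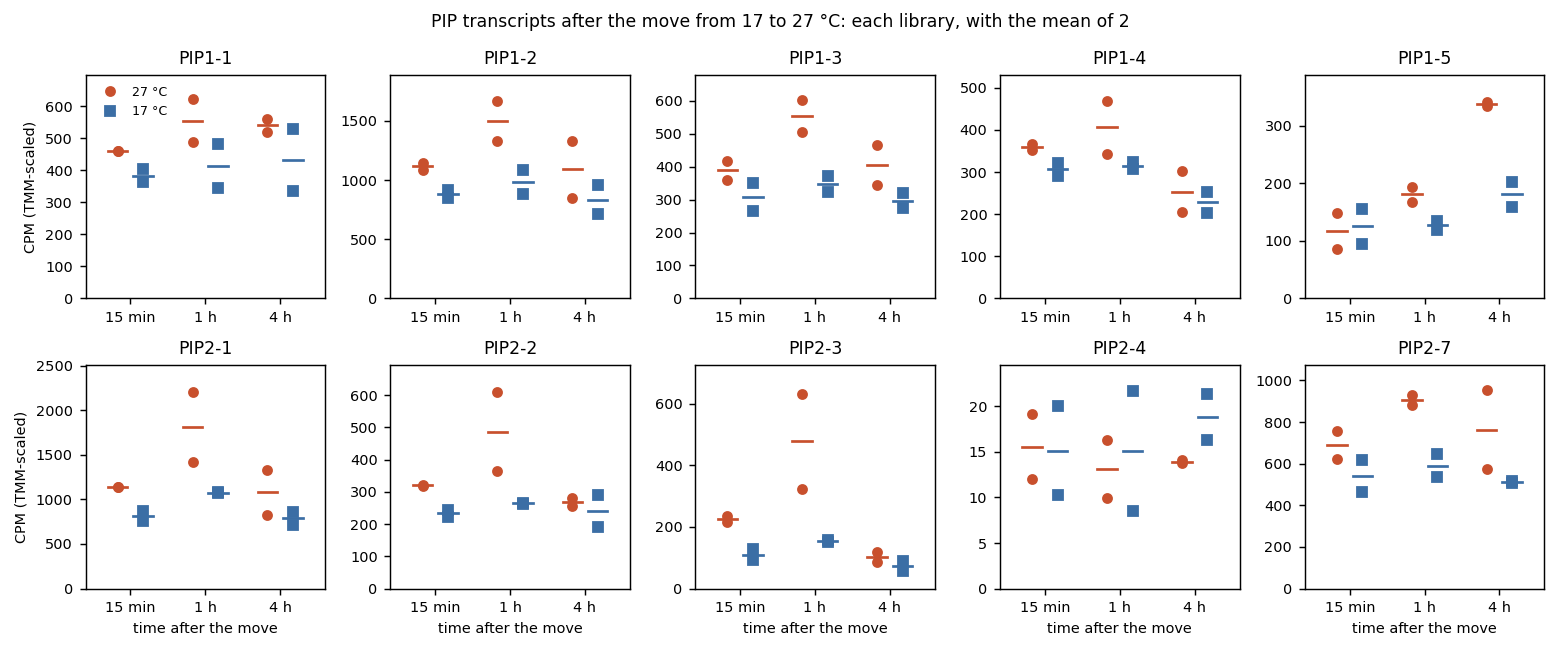
CPM on TMM-scaled library sizes (y axis, from 0) of the 10 PIPs at 15 min, 1 h and 4 h (x axis), with libraries at 27 °C as circles, those at 17 °C as squares and a bar at the mean of 2. The gap of PIP2-3 stands out at 1 h, with 632 and 325 CPM at 27 °C against 157 and 150 CPM at 17 °C.

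At 37 °C PIP2-3, PIP1-5 and PIP2-2 rose over the 3 times (3 of 10 members, against 20.8% of 21638 genes called in either direction and 9.79% called higher), and 0 members fell. The other 7 had log2 fold changes from -0.09 to 0.27, and the median of the 10 was 0.15, against -0.0036 over all genes. Each time had 1 library per temperature, so the spread rests on 3 libraries per temperature with 2 residual degrees of freedom.

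PIP2-3 had 452, 466 and 391 CPM at 37 °C after 15 min, 1 h and 4 h, against 132, 152 and 86.7 CPM at 17 °C. Every library at 37 °C lay above every library at 17 °C, and the ratio at matched times was 3.07 to 4.51. The log2 fold change was 1.86 ± 0.15 (SE; 3 libraries at each temperature; edgeR adjusted p = 0.00286), and it passed in every alternative fit run. In the fit over all 27 libraries, which borrows its spread from the duplicated groups, it rose at 4 h by 2.17 ± 0.49 (adjusted p = 0.0168), as 1 of 10 members against 15.3% of 22239 genes. It missed the test at 15 min (1.78 ± 0.48, adjusted p = 0.0968) and at 1 h (1.62 ± 0.48, adjusted p = 0.0908). There 0 members were called by edgeR, against 2.46% and 4.83% of genes, while unadjusted p was under 0.05 for 1 member and DESeq2 called 1 at each time, against 2.66% and 4.74% of genes. The 37 °C effect at 4 h minus that at 15 min called 0 members, against 0.198% of genes, with 0 at an unadjusted p under 0.05 and 0 by DESeq2.

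PIP1-5 had 272, 273 and 258 CPM at 37 °C against 169, 164 and 169 CPM at 17 °C, a narrow and steady gap without overlap. Its log2 fold change was 0.68 ± 0.09 (SE, n = 3, edgeR adjusted p = 0.013). PIP2-2 had 435, 435 and 446 CPM at 37 °C against 305, 307 and 253 CPM at 17 °C, again without overlap. Its log2 fold change was 0.61 ± 0.12 (edgeR adjusted p = 0.0263). Both lost their call without the 1 h libraries (adjusted p = 0.128 for PIP1-5 and 0.138 for PIP2-2) and as a mean of times in the fit over all libraries (0.0562 and 0.0576). With the counts of PIP2-2 and PIP2-3 summed, an alternative chosen after seeing the data, the pair rose by 1.1 ± 0.12 at 37 °C (adjusted p = 0.00633). The summed pair missed the test in the other comparisons. It had 0.70 ± 0.19 for 27 against 17 °C (adjusted p = 0.0949), 0.55 ± 0.14 for 27 against 22 °C (0.153) and -0.34 ± 0.14 for 4 h against 15 min in unmoved seedlings (0.0882).

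The members that lead the family did not pass the test at 37 °C. PIP1-2 had 1109, 945 and 761 CPM at 37 °C against 978, 1095 and 783 CPM at 17 °C, so the temperatures overlapped (-0.02 ± 0.11, SE, edgeR adjusted p = 0.899). PIP2-1 had 1168, 930 and 798 CPM at 37 °C against 930, 1014 and 749 CPM at 17 °C (0.10 ± 0.12, adjusted p = 0.557). PIP2-7 had 777, 735 and 580 CPM at 37 °C against 629, 587 and 509 CPM at 17 °C, higher at each matched time (0.27 ± 0.09, adjusted p = 0.0865). PIP1-1, PIP1-3, PIP1-4 and PIP2-4 had log2 fold changes from -0.09 to 0.19. Root markers fell in 6 of 11 tested cases at 37 °C (median -1.53), against 20.8% of all genes called in either direction. Their part in these values was not tested.

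Levels in TPM read differently here, because over all genes the median log2 ratio of TPM at 37 °C to that at 17 °C was -0.23, -0.33 and -0.35 at 15 min, 1 h and 4 h. In TPM 6, 3 and 3 of 10 members were higher at 37 °C at these times, against 9, 6 and 8 in CPM. PIP2-3, PIP1-5 and PIP2-2 were higher at each time on both scales. At 27 °C the median over all genes shifted by -0.18, -0.17 and 0.07, and the members higher without overlap in TPM were 2, 3 and 8. The share of all genes without overlap in TPM was not computed, so these counts cannot be set against it.

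Shares within a library do not depend on such scaling. PIP2-3 made up 8.05, 9.40 and 9.16% of the summed TPM of the 10 members at 37 °C after 15 min, 1 h and 4 h, against 3.13, 3.43 and 2.48% at 17 °C. The TPM of PIP2-3 was 0.976, 1.01 and 0.834 times that of PIP2-2 at 37 °C, against 0.415, 0.475 and 0.331 times at 17 °C. In order of TPM, PIP2-3 ranked 7th, 4th and 7th of the 10 at 37 °C and 9th in each library at 17 °C. PIP1 genes held 48.2, 46.5 and 46.8% at 37 °C against 52.0, 53.0 and 53.6% at 17 °C. PIP1-2 alone held 19.0, 18.1 and 16.7% at 37 °C against 21.5, 22.8 and 20.3% at 17 °C. At 27 °C the share of PIP2-3 was 4.69 and 4.98% after 15 min, against 3.68 and 2.57% at 17 °C. After 1 h it was 8.24 and 5.97% at 27 °C against 3.97 and 3.57% at 17 °C, and after 4 h 3.05 and 1.61% at 27 °C against 2.37 and 1.87% at 17 °C.

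**Figure D2:**
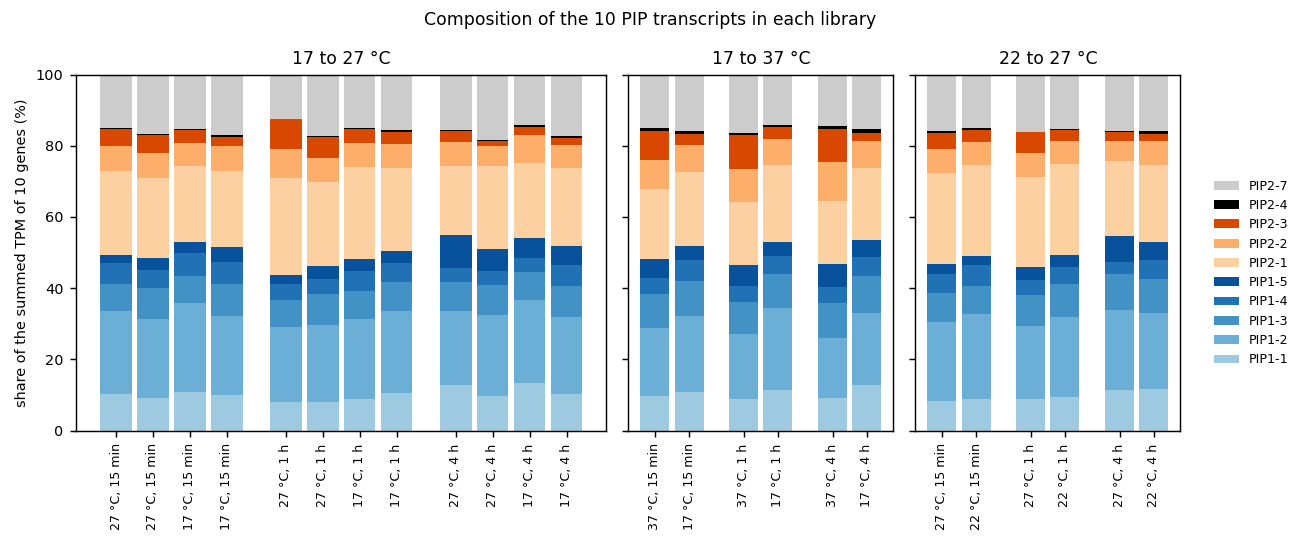
Share of the summed TPM of the 10 PIPs (y axis, percent) in each moved or matched library (x axis), with PIP1 genes in blue, PIP2-1, PIP2-2 and PIP2-3 in orange, PIP2-4 in black and PIP2-7 in grey. The PIP2-3 band is widest at 37 °C after 1 h, at 9.40% against 3.43% at 17 °C.

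The 37 °C effect minus the 27 °C effect, each against its own controls, passed the test for 0 of 10 members (edgeR), against 15.4% of 22211 genes, and unadjusted p was under 0.05 for 1. DESeq2 also called 0 members. PIP2-3 differed by 0.82 ± 0.37 (SE, adjusted p = 0.146), with an interval of 2 SE on either side from 0.08 to 1.55. Of the most abundant members, PIP1-2 differed by -0.46 ± 0.23 and PIP2-1 by -0.45 ± 0.25, with 2 SE intervals from -0.93 to 0.01 and from -0.95 to 0.05. The interval of PIP2-3 lay above 0, and those of PIP1-2 and PIP2-1 lay mostly below 0. None of these differences passed the test, and a like response at both temperatures is not shown either. PIP2-3 at 4 h stood at 391 CPM at 37 °C and at 118 and 85.2 CPM at 27 °C, in different experiments.

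The move from 22 to 27 °C gave 9 of 10 members a positive log2 fold change, and 0 passed the test (edgeR), against 0.346% of 19677 genes. Unadjusted p was under 0.05 for 4 members, and DESeq2 called 1 (PIP2-3), against 1.8% of genes. PIP2-3 had 307, 424 and 167 CPM at 27 °C after 15 min, 1 h and 4 h, against 206, 187 and 81.6 CPM at 22 °C. It was higher at each time, while the values as a whole overlapped (0.93 ± 0.17, SE, n = 3, edgeR adjusted p = 0.0727). Without the 15 min or without the 4 h libraries it passed, at 0.0317 (2.06% of genes called) and 0.0373 (1.99%). PIP1-5 had 172, 249 and 472 CPM at 27 °C against 151, 208 and 203 CPM at 22 °C, with its widest gap at 4 h (0.55 ± 0.22, adjusted p = 0.277). PIP2-4 had 25.4, 16.0 and 13.2 CPM at 27 °C against 22.4, 19.4 and 27.4 CPM at 22 °C (-0.36 ± 0.23, adjusted p = 0.478). PIP2-1 had 1876, 2093 and 1548 CPM at 27 °C against 1723, 1710 and 1015 CPM at 22 °C, higher at each time (0.34 ± 0.15, adjusted p = 0.311). PIP1-2 had 1633, 1711 and 1642 CPM at 27 °C against 1643, 1522 and 1023 CPM at 22 °C, with its gap at 4 h (0.28 ± 0.17, adjusted p = 0.445). PIP1-4 had 510.3, 453 and 325 CPM at 27 °C against 509.7, 413 and 318 CPM at 22 °C, nearly level at 15 min and 4 h (0.05 ± 0.14, adjusted p = 0.879). PIP1-3, PIP2-2 and PIP2-7 were higher at each time, by 0.36 to 0.37. The median of the 10 was 0.35, against -0.02 over all genes. A test of the 22-to-27 effect minus the 17-to-27 effect, added after seeing the data, called 0 members and 0 of 21423 genes, and unadjusted p was under 0.05 for 0 members. PIP2-3 differed there by -0.11 ± 0.37.

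**Figure D3:**
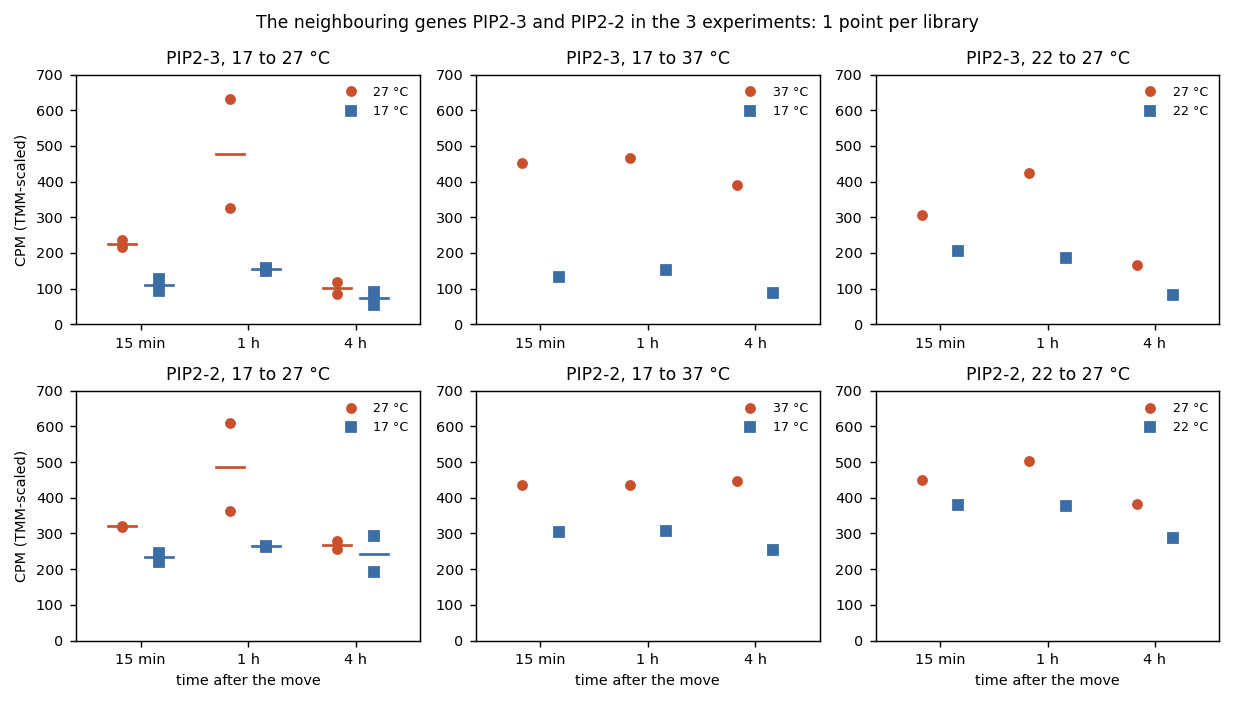
CPM on TMM-scaled library sizes (y axis, from 0) of PIP2-3 (upper panels) and PIP2-2 (lower panels) in the 3 experiments at 15 min, 1 h and 4 h (x axis), with 1 point per library, circles for moved and squares for kept seedlings, and a bar at the mean where there are 2. PIP2-3 stands at 452, 466 and 391 CPM at 37 °C against 132, 152 and 86.7 CPM at 17 °C.

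Of the 3 remaining PIP genes, PIP2-5 and PIP2-8 fell at 37 °C, against 20.8% of all genes called in either direction. PIP2-5, a low-level channel known to respond to drought, had 7.98, 5.46 and 6.37 CPM at 37 °C against 14.01, 15.9 and 13.5 CPM at 17 °C and fell by 1.13 ± 0.21 on the log2 scale (SE, n = 3, edgeR adjusted p = 0.0249). PIP2-8 had 13.2, 14.9 and 11.4 CPM at 37 °C against 23.03, 21.7 and 20.7 CPM at 17 °C and fell by 0.73 ± 0.14 (adjusted p = 0.0284). Neither gene overlapped between temperatures. PIP2-6 was at 0.27 ± 0.09 (adjusted p = 0.0878). For PIP2-5 and PIP2-8 the 37 °C effect also lay below the 27 °C effect, by -1.12 ± 0.31 (adjusted p = 0.0271) and -0.74 ± 0.20 (adjusted p = 0.022). In that test 15.4% of all genes were called. Leaving out any 1 time ended both calls (adjusted p = 0.0568 to 0.163), and leaving out the libraries numbered 2 of the 17-to-27 experiment ended that of PIP2-8 (0.0712). At 27 °C all 3 were between -0.01 and 0.02 over the times. In the 22-to-27 experiment PIP2-5 and PIP2-8 were lower at 27 °C at each time (-0.64 ± 0.23 and -0.45 ± 0.15), short of the test (adjusted p = 0.235 and 0.221). The fall of the root markers at 37 °C goes beside these values, and its part in them was not tested.

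**Figure D4:**
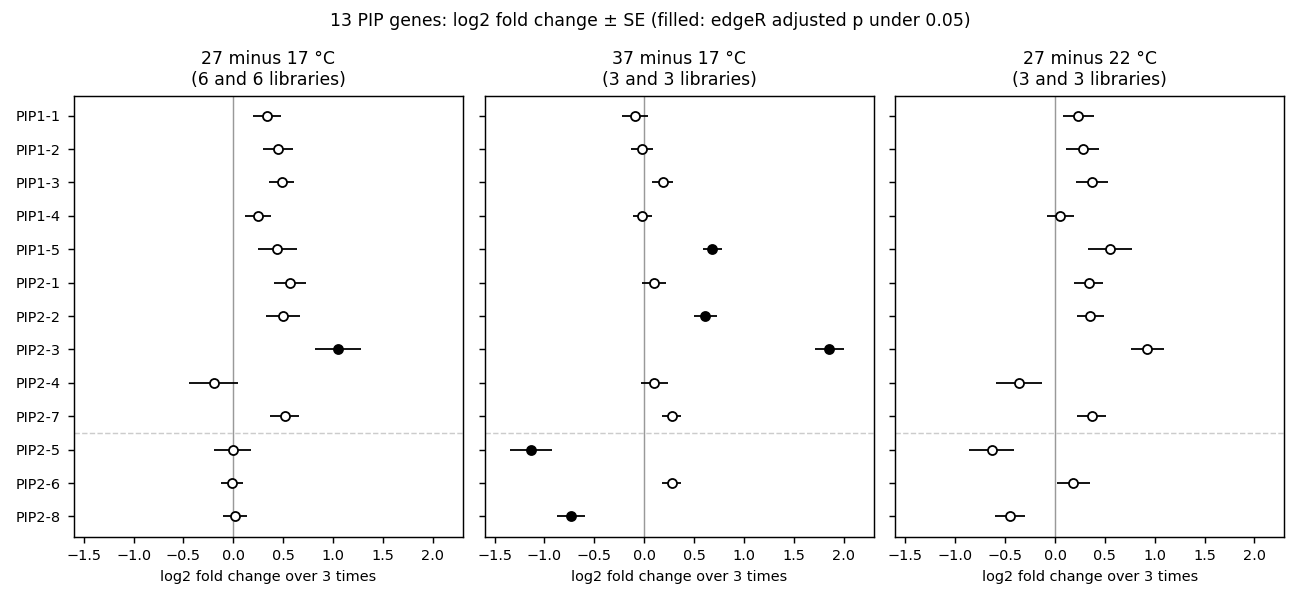
Log2 fold change ± SE over the 3 times (x axis) of 13 PIP genes (rows, with the 3 genes outside the 10 members below the dashed line) for 27 minus 17 °C, 37 minus 17 °C and 27 minus 22 °C, filled where the edgeR adjusted p is under 0.05. PIP2-3 is the point farthest to the right in each panel, at 1.05, 1.86 and 0.93.

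Other aquaporins and PIP partners gave the following counts. Of the vacuolar TIP aquaporins, 0 of 6 tested were called at 27 °C, while 5 of 6 had a positive log2 fold change and their median was 0.40. At 37 °C, 3 of 9 tested TIPs were called, against the 20.8% of all genes given above: TIP2-2 fell by 1.05 ± 0.20 and TIP4-1 by 1.01 ± 0.15 on the log2 scale (edgeR adjusted p = 0.0284 and 0.0148), and TIP5-1 was higher on very few reads, with 9 or 10 counts per library at 37 °C and 0 or 1 at 17 °C. Of the NIP aquaporins, which also carry small solutes, 2 of 8 tested fell at 37 °C, NIP1-1 by 1.3 ± 0.26 and NIP1-2 by 1.36 ± 0.26 (adjusted p = 0.03 and 0.0266), and 0 of 7 were called at 27 °C (median 0.0023). The NIP count at 37 °C is also near the 20.8% of all genes called. Of the SIP aquaporins of the endoplasmic reticulum, 0 of 3 were called at either temperature.

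Among 9 proteins known to act on PIPs, RMA2, a membrane-bound ubiquitin ligase of the family that sends PIP2-1 to breakdown, rose at 27 °C. RMA2 had 31.2 and 23.4 CPM at 27 °C against 8.38 and 9.67 CPM at 17 °C after 1 h, without overlap. It rose by 1.59 ± 0.27 at 1 h (edgeR adjusted p = 0.0373) and by 0.96 ± 0.21 over the times (adjusted p = 0.0491). It was the 1 gene of 9 called in each, against 0.842% and 1.5% of all genes. At 1 h the call was lost without the 27 °C library numbered 1 (1.37 ± 0.31, adjusted p = 0.175) and without either 17 °C library (0.184 and 0.193). Over the times it was lost without both 1 h libraries numbered 1 (0.78 ± 0.20, adjusted p = 0.144), without either replicate number, without the 1 h or the 4 h libraries (0.0964 to 0.733), and narrowly with a block within each time (0.0531). At 37 °C, 2 of 9 were called, near the share of all genes. RMA2 rose by 0.54 ± 0.13 (adjusted p = 0.04), and SIRK1, a receptor kinase that phosphorylates PIPs after sucrose is supplied, fell by 0.92 ± 0.21 (adjusted p = 0.0388). Without the 1 h libraries none of the falls in PIP2-5, PIP2-8, TIP2-2, TIP4-1, NIP1-1, NIP1-2 and SIRK1 at 37 °C passed the test (adjusted p = 0.105 to 0.164), nor did the rise of RMA2 (0.227). RMA1 differed between the effects, by -1.91 ± 0.53 for 37 °C minus 27 °C (adjusted p = 0.0263), which was lost without either replicate number of the 17-to-27 experiment (0.0587 and 0.104) and without the 1 h or the 4 h libraries (0.229 and 0.104).

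Over the morning some members moved in seedlings that stayed at their temperature. PIP2-3 and PIP1-4 were lower at 4 h than at 15 min (2 of 10 members, both lower, against 25.7% of 21712 genes called and 13.7% called lower). These libraries are also the controls of the moves. PIP2-3 had 90.9, 55.6, 86.7 and 81.6 CPM at 4 h, against 127, 93.6, 132 and 206 CPM at 15 min, in the 2 libraries of the 17-to-27, the 1 of the 17-to-37 and the 1 of the 22-to-27 experiment. The times did not overlap, and PIP2-3 fell by 0.80 ± 0.19 (log2, SE, 4 libraries at each time, edgeR adjusted p = 0.00815). PIP1-4, a channel that also passes hydrogen peroxide, had 203, 253, 260 and 318 CPM at 4 h against 290, 322, 334 and 510 CPM at 15 min. It was lower within each experiment and fell by 0.50 ± 0.09 (adjusted p = 0.00161). The median of the 10 was -0.21, against -0.01 over all genes. In the same test 6 of 9 shoot markers and 4 of 11 tested root markers rose, and their part in these values was not tested. Without the 17-to-27 experiment PIP1-2 and PIP2-1 passed as well, which made 4, against 14.4% of genes. From 15 min to 1 h edgeR called 0 members, against 2.27% of genes, unadjusted p was under 0.05 for 0 members, and DESeq2 called 0 too. Among other aquaporins, 4 of 8 tested NIPs (3 higher and 1 lower) and 0 of 8 tested TIPs were called from 15 min to 4 h. Of 3 SIPs, SIP1-1 rose by 0.38 ± 0.10 (edgeR adjusted p = 0.0147). Of the PIP partners, RMA1 rose by 2.80 ± 0.24 and RMA3 by 1.32 ± 0.15 from 15 min to 4 h (adjusted p = 5e-06 and 3.5e-05). TSPO was called lower there (adjusted p = 0.0308), with 25.4 CPM in 1 library and 0.04 CPM in the other of the 17 °C pair at 15 min.

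The 5 genes outside the aquaporins whose log2 CPM ran most like the mean of the 10 members over the 27 libraries, of 14120 genes averaging 3 or more on that scale, had Pearson r from 0.866 to 0.889. They were HPR (AT1G68010, a peroxisomal hydroxypyruvate reductase of photorespiration), FD1 (AT1G10960, a ferredoxin), AT3G26450, AT4G23680 and DCP1 (AT1G08370, part of the mRNA decapping complex). For PIP2-3 alone, a set added after its values were seen, r ran from 0.903 to 0.945, for BTI2 (AT4G11220, a reticulon-like membrane protein), GSTU5 (AT2G29450, a glutathione transferase), RHC1A (AT2G40830), RANBP1 (AT5G58590) and AT2G43630. The 27 points share experiments, times and library depth, so these values are a description.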

How the data were processed

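RNA from about 30 mg of seedling tissue was sequenced as paired reads of 100 bases, per the labels' protocols, with stranded and unstranded kits at 2 sequencing centres; which library got which is not given in the sources used here. FastQC, Trimmomatic, TopHat, Picard and the TAIR10 build are named in the submitters' processing notes, without versions; which program counted reads, and whether it used strand, the sources used here do not give. The deposited tables hold raw counts per gene, and, per the file headers, FPKM and TPM values that the authors computed; FPKM was not used.

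Of 33557 gene identifiers, 32810 (97.8%) matched the RefSeq annotation of TAIR10.1, the source of all sequences. Counts were tested with edgeR 4.0.16 in R 4.3.3 (filterByExpr, TMM scaling, robust quasi-likelihood F test, Benjamini-Hochberg adjusted p under 0.05 over all genes tested), with time and experiment as terms where several entered. DESeq2 1.42.0 was an alternative. Summaries used Python 3.11.15. Residual degrees of freedom were 8 for 27 against 17 °C over times, 6 per time, 2 for 37 against 17 °C and for 27 against 22 °C over times, 10 for the difference of effects and 9 for unmoved seedlings. A lone library per group was assumed to vary like the duplicated groups in fits per time. Several of the fits were also run on simulated counts with known folds, independent libraries and the same spread for all genes. Real libraries deviated together in pairs, so that run does not give the error rates in these data. Values per library are CPM on TMM-scaled library sizes; levels between genes are the authors' TPM.

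The 10 members and all gene lists were chosen with earlier results of these data known. Named are all 13 PIP genes, the temperature check HSP70-4 and the 5 genes with the highest Pearson r with the members' mean. The rule for each other list was up to 4 genes past the test with the largest log2 fold change per comparison. Not every gene under that rule is named. Libraries of 1 group differed by far more than counting noise (mean chi-square per gene 28.4 to 88.3), so none was treated as a repeat of the same library. Whether they come from separate cultures stays unknown. A 0 min library (17-to-27) carries the number 1 in its title and 2 in another label, and entered no test by number. In that experiment, libraries of equal number and time deviated together. Correlations were 0.41 to 0.55 over 3 pairs, against -0.07 to 0.38 over 12 pairs of unequal times. The number was therefore read as a pairing, from the data and not from a label. The main fits left this pairing out, and only the fits with a replicate block used it. Alternatives were RLE scaling, no filter on low counts, organelle genes left out, replicates, times or experiments left out, and the replicate block. The difference between both 27 °C effects and the sum of PIP2-2 and PIP2-3 counts were added after seeing the data.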

Additional observations from a re-analysis of the deposited data

How the results depend on the processing

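Counts of members called depended on the processing as follows. For 27 against 17 °C over times (1 called), DESeq2 called 5, and leaving out a replicate number (range 0 to 0), the 15 min, the 1 h or the 4 h libraries, or both 1 h libraries numbered 1 gave 0 in each case, and so did summing the counts of PIP2-2 and PIP2-3. At 1 h (0 called), no filter gave 1, DESeq2 gave 2, the replicate block gave 1, and leaving out 1 library gave 0 to 2. The replicate block changed no other count. For 37 against 17 °C over times (3 called), leaving out the 1 h libraries and the mean of times in the fit over all libraries each gave 1. DESeq2 gave 1 at 15 min and 1 at 1 h, where edgeR called 0. For 27 against 22 °C (0 called), no filter, DESeq2, and leaving out the 15 min or the 4 h libraries each gave 1. In unmoved seedlings at 4 h (2 called), leaving out the 17-to-27 experiment gave 4 and the summed pair gave 1. The other 93 recomputed counts stayed within 1.5 times the reported count.

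Among members not called, signs turned for small values: at 37 °C over times without the 1 h libraries, PIP1-2 gave 0.0783 and PIP1-4 gave 0.0393, and without the 15 min libraries PIP2-1 gave -0.03. At 37 °C after 4 h, PIP1-2 gave 0.0102 with RLE scaling and 0.0102 with DESeq2. At 27 °C after 1 h, PIP2-4 gave 0.62 without the 17 °C replicate 2 and 0.0937 without the 27 °C replicate 1, and leaving out 1 library ranged from -0.72 to 0.62. PIP1-1 gave -0.061 in unmoved seedlings at 4 h without the 17-to-27 experiment. The cause was not tested for any of these, beyond the fewer libraries where some were left out.

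The moves to 37 °C and from 22 °C rest on 1 library per temperature and time. At 5790129 to 30741125 counts per library the PIP genes with the lowest counts, PIP2-4, PIP2-5 and PIP2-8, carry the largest counting error.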
